A study of Mus musculus with 18 samples.

Results

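Mouse oocytes carrying a single-copy Zfy1 transgene (Zfy1_lo) were compared with oocytes of XX females without a transgene (XX), as 3 bead arrays against 3 among the 18 arrays of the study. The 6 arrays were chosen by their labelled genotype alone, and all 6 belonged to batch 1. Every gene of the deposited table was considered, of which 12184 of 19057 named genes gave a usable signal. The question was how far a low dose of Zfy1 leaves the oocyte transcriptome as it is, and what size of change the arrays leave possible for each gene.

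Both groups were germinal vesicle (GV) oocytes of the outbred MF1 albino background. Per the labels, the females were 4 weeks old and had received PMSG, a hormone that drives follicle growth, 45 to 48 hours earlier. Cumulus cells had been stripped off, and each array held a pool of about 100 oocytes of at least 2 females. The other genotypes used below had 3 arrays each, on the same background and handled alike. Zfy1_hi carried many copies of the Zfy1 transgene, Zfy2 carried Zfy2 in single copy, and Zfy2_nf carried a Zfy2 transgene that is not functional. Zfy2_Eif2s3y, marked in the labels as contaminated, carried single-copy Zfy2 and, in a share of its cells, many copies of Eif2s3y. The labels give neither the promoter nor the insertion site of the transgenes, nor the number of founder lines. Since each pool is a bulk sample, fewer cells with a transcript and less of it per cell cannot be told apart.

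Zfy1 and Zfy2 are zinc finger proteins encoded on the mouse Y chromosome, and Zfx is their homologue on the X chromosome. They are known for their roles in male meiosis and spermatid development, and an XX oocyte normally has no Zfy gene. A GV oocyte is arrested in meiotic prophase, and a fully grown one makes little new RNA and depends on stored transcripts.

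The 6 arrays were alike in quality. Between 19176 and 19906 of 45281 probes were detected on the Zfy1_lo arrays and between 18577 and 19286 on the XX arrays. Across genes, Zfy1_lo arrays correlated with each other at r = 0.978 to 0.980, XX arrays with each other at 0.979 to 0.985, and arrays of the 2 groups at 0.977 to 0.982. All 10 oocyte markers, such as the zona pellucida genes Zp1, Zp2 and Zp3, were detected on every array, with a summed linear signal of 36782 to 39295 in Zfy1_lo and 37438 to 38405 in XX. Of 11 granulosa and cumulus markers 8 were tested, with sums of 739 to 966 in Zfy1_lo and 755 to 871 in XX, 6 or 7 detected per array in each group, and Foxl2 and Amh not detected often enough to be kept. Of 7 stroma and theca markers 5 were tested, with sums of 192 to 229 in Zfy1_lo and 181 to 213 in XX, 1 to 4 detected per Zfy1_lo array and 1 on every XX array, and Col1a1 at background on all 6 arrays. The part of these cells in the results was not tested.

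The 1 feature that passed the test was a probe without a gene name. When every kept probe was tested, limma called 1 of 23951 (0.00418%), the probe ILMN_2487781, for which the platform annotation used here gives no gene. It read 6.12, 6.15 and 6.67 (log2 intensity) in the Zfy1_lo pools, against 4.58, 4.34 and 4.39 in the XX pools. All Zfy1_lo arrays were high and detected, no XX array was detected, and the groups did not overlap. The signal rose by a log2 change of 1.88 (SE 0.140, 95% interval 1.58 to 2.18, adjusted p = 8.63e-06), which is at least 2.73-fold above the detection floor of the XX arrays.

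The same probe was far brighter with many copies of the transgene. It read 11.41, 11.50 and 11.51 in the Zfy1_hi pools of batch 2, while the Zfy2 pools of the same batch and slide were at background (4.54 ± 0.10, SD, n = 3). It was likewise at background on all arrays of Zfy2_Eif2s3y (4.37 ± 0.09) and of Zfy2_nf (4.42 ± 0.11), and in XX (4.44 ± 0.12). Against Zfy2_nf it was higher in Zfy1_lo by 1.89 (SE 0.140, adjusted p = 7.85e-06). The call held without any 1 of the 6 arrays (log2 change 1.70 to 1.97, largest adjusted p = 0.000176) and in the authors' normalized values (0.74, adjusted p = 0.000509). It was lost when only the 6 arrays were normalized, filtered and fitted (1.83, adjusted p = 0.168). Normalization, probe filter and spread then all rested on fewer arrays, and the part of each was not tested. The probe was singled out after its value was seen.

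Probes named for the Zfy genes gave smaller signals. The dimmer of the 2 Zfy1 probes read 5.20, 5.67 and 5.57 in Zfy1_lo, against 4.46, 4.53 and 4.81 in XX. It was detected on every Zfy1_lo array and on no XX array, at least 1.53-fold higher, but the difference of 0.88 (SE 0.148, 95% interval 0.57 to 1.19) did not pass over all probes (adjusted p = 0.0961). Against Zfy2_nf the same probe was higher by 0.97 and passed (adjusted p = 0.0233), as 1 of 9 probes called there (0.0376%). Against the mean of XX and Zfy2_nf it was higher by 0.93 (SE 0.128, adjusted p = 0.022), and it and ILMN_2487781 were the 2 probes called (0.00835%). The probe named for Zfy2 read 5.37, 5.17 and 5.62 in Zfy1_lo, against 4.46, 4.36 and 4.34 in XX, a bound of at least 1.44-fold (difference 1.00, SE 0.186, adjusted p = 0.216). In the Zfy1_hi pools, which carry no Zfy2 transgene either, this probe averaged 7.02 ± 0.19, so that a signal was present without a Zfy2 transgene. Probe sequences were not used here, and cross-reading between Zfy1 and Zfy2 was not tested. Values named Zfy2 below are those of this probe.

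The brighter Zfy1 probe did not separate Zfy1_lo from XX. It read 5.75, 5.50 and 6.29 in Zfy1_lo and 6.12, 5.94 and 5.68 in XX, with overlapping groups and a difference of -0.07 (95% interval -0.44 to 0.31). With many copies it was higher, at 7.14 ± 0.10 in Zfy1_hi, against 5.75 ± 0.07 in Zfy2 of the same batch (SD, n = 3 each), and it read 6.54 ± 0.18 in Zfy2_nf, above both Zfy1_lo and XX. In the tests across genes this probe stands for Zfy1. It was detected on all 3 arrays of every genotype, XX included, where no Zfy gene is normally present. The value named Zfy1 across genes is thus no clean measure of the transgene, and the source of the XX signal was not tested. An exact permutation test of 3 arrays against 3 cannot go below p = 0.1, which is the value that both the dimmer Zfy1 probe and the Zfy2 probe reached.

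**Figure D1:**
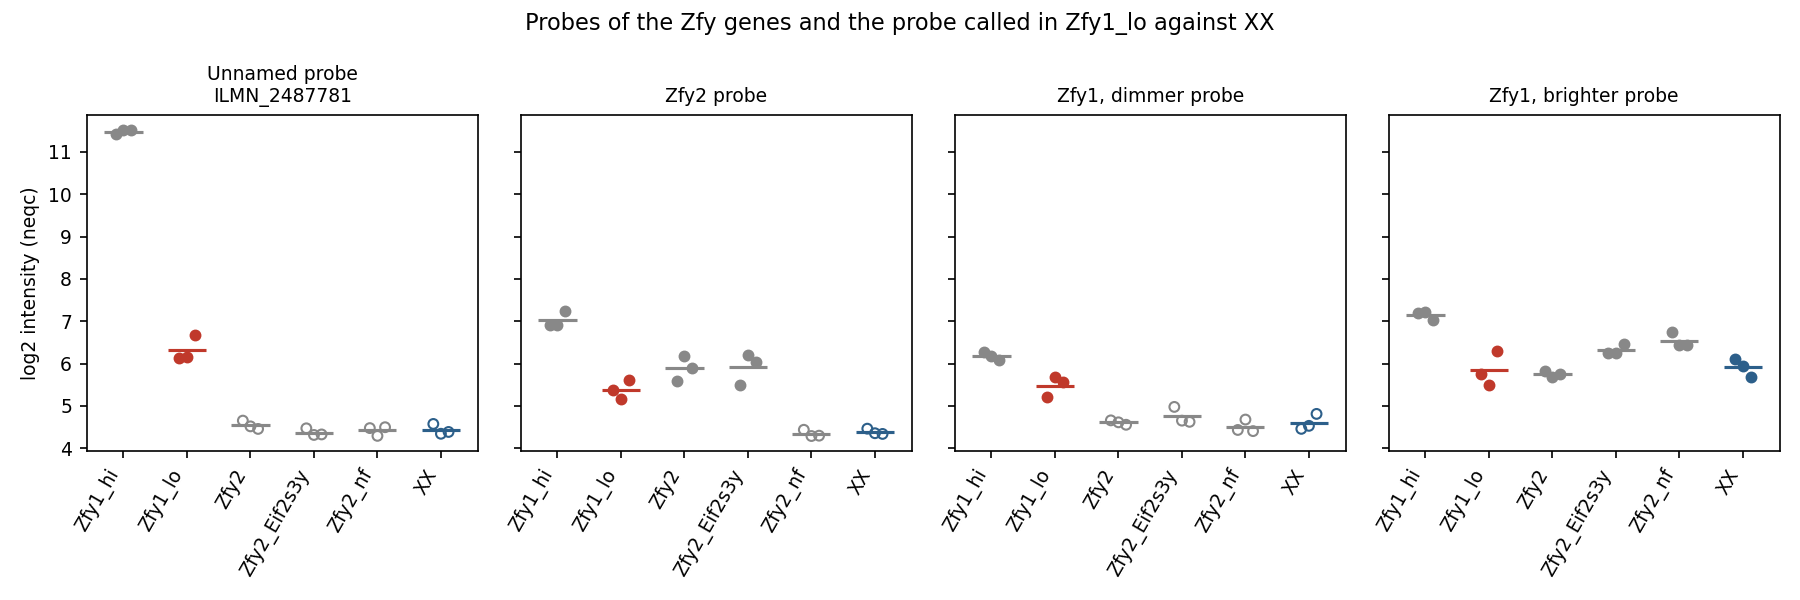
Log2 intensity of 4 probes on all 18 arrays by genotype (points, arrays; lines, group means; filled where all 3 arrays of the group were detected). The unnamed probe reads 6.12 to 6.67 in Zfy1_lo, 4.34 to 4.58 in XX and over 11 in Zfy1_hi, while the brighter Zfy1 probe overlaps between Zfy1_lo and XX.

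Zfx, the X-linked homologue, was mostly at background, its brighter probe being detected on 1 Zfy1_lo and 2 XX arrays. It read 5.47, 4.60 and 4.72 in Zfy1_lo, against 4.85, 4.52 and 5.08 in XX. Its difference of 0.11 had a 95% interval of -0.42 to 0.65, and the 2 groups overlapped. At this signal the probe sets no limit on a change of Zfx. Eif2s3x, the X-linked gene of the gamma subunit of the translation factor eIF2, read 7.15, 6.65 and 6.86 in Zfy1_lo and 7.01, 7.36 and 7.28 in XX (difference -0.33, 95% interval -0.65 to -0.01, adjusted p = 0.65). Neither of 2 probes named for its Y-linked partner Eif2s3y was detected on any Zfy1_lo or XX array. The array carried no probe named for Zfa, an autosomal relative.

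Across named genes, none of 12184 passed in Zfy1_lo against XX (0%), and the smallest adjusted p was 0.24. At an unadjusted p under 0.05 there were 926 genes (7.6%), 463 higher and 463 lower (3.8% each), where 609.2 would be expected if no gene differed. Genes that vary together widen the range of such a count, so the excess was not tested. The arrays of the 2 groups did not overlap for 1379 genes (11.3%), of which 685 were higher (5.62%) and 694 lower (5.7%). The median difference over all genes was -0.0046, and 9031 genes (74.1%) lay within 0.25 of XX on the log2 scale.

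The intervals show what the arrays leave possible. By an equivalence test, which asks for each gene whether a change beyond 2-fold in either direction can be rejected, 11463 genes (94.1%) were within 2-fold at an adjusted p under 0.05. With a margin of 1.5-fold the count was 7160 (58.8%). The largest fold inside a gene's 95% interval had a median of 1.46, a 90th percentile of 1.97 and a 99th percentile of 3.00. At the median standard error of 0.181, a single changed gene would have needed a log2 change of 1.24 (2.36-fold) to be called, so a true 2-fold change of 1 gene could be missed. These folds are on the scale of log2 intensities with an offset of 16, which understates changes of dim genes, and 513 genes counted as within 2-fold were detected on none of the 6 arrays.

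Precision followed the level. Among the brightest 3046 genes, 99.2% were within 2-fold and the median largest fold was 1.31. In the next brightest 3046 genes 94.9% were within 2-fold and the median was 1.48. The genes just above background, with mean levels of 5.03 to 6.59, were the least certain at 85% and 1.70. The dimmest genes looked tighter (97.1% and 1.45), since values near background are pressed together by the background correction and the offset.

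**Figure D2:**
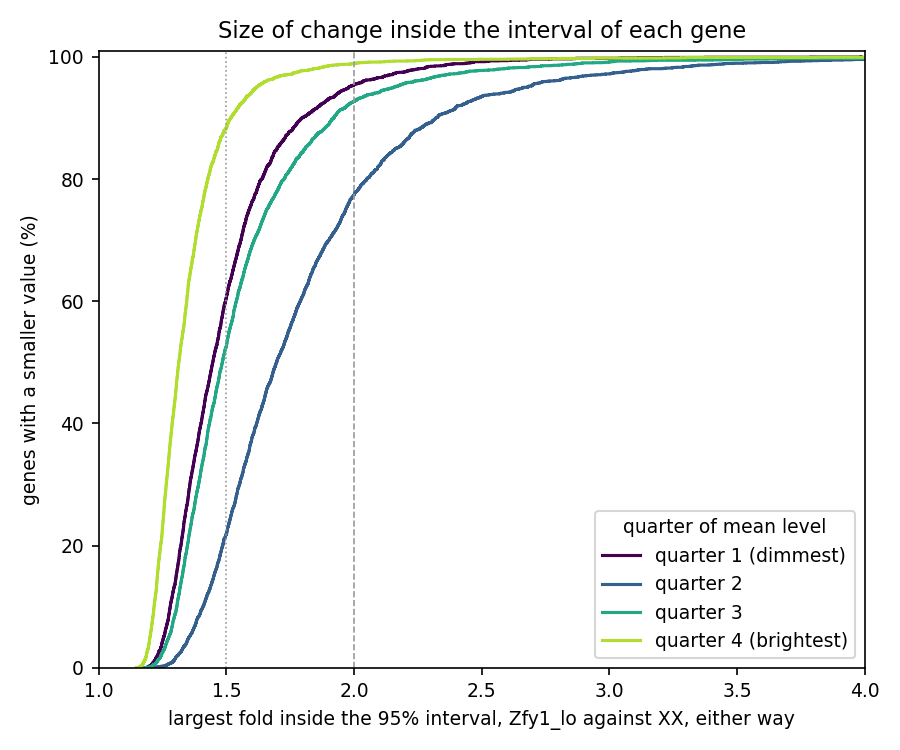
Share of genes (y, percent) whose 95% interval for Zfy1_lo against XX holds no fold larger than the value on x, in 4 classes of mean level with 3046 genes each. Dashed and dotted lines mark 2-fold and 1.5-fold. The brightest class has a median of 1.31 and the class just above the dimmest a median of 1.70.

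The higher genes with the smallest p that did not overlap were of mixed function, and none passed. Fkbp8, an immunophilin of the outer mitochondrial membrane, read 7.78, 7.64 and 7.79 in Zfy1_lo, against 7.23, 7.07 and 7.03 in XX. The difference was 0.63 (95% interval 0.37 to 0.89, adjusted p = 0.24), and against Zfy2_nf it was 0.51 (adjusted p = 0.358). Atxn2, an RNA-binding protein, read 9.70, 9.97 and 9.86 in Zfy1_lo, against 9.42, 9.31 and 9.28 in XX (difference 0.51, adjusted p = 0.286). It lay 0.50 above Zfy2_nf as well (adjusted p = 0.245).

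Other members of this set were more scattered. Ndc1, a membrane nucleoporin, read 8.92, 9.37 and 9.13 in Zfy1_lo, against 8.66, 8.22 and 8.25 in XX (difference 0.76). Rgs3, a regulator of G protein signalling, read 8.13, 8.01 and 8.14, against 7.26, 7.34 and 6.87 (difference 0.94). Its 95% interval reached 2.63-fold, so a change above 2-fold lay inside it. Zwilch, a kinetochore protein of the spindle checkpoint, read 6.93, 7.44 and 7.21 in Zfy1_lo, against 6.53, 6.36 and 6.41 in XX (difference 0.76). Hyou1, a chaperone of the endoplasmic reticulum, differed by 0.80 from XX but by -0.12 from Zfy2_nf. Trim35 (0.85), Ric8b (0.87), L1td1 (0.73), Far1 (0.62) and Minar2 (0.95) complete the 12 together with Zfy2. All 12 were chosen for XX arrays that lay below Zfy1_lo. A Zfy2_nf level above the same XX arrays is therefore in part fixed by that choice. A like limit holds for later genes named for a small p or a large difference from XX.

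The 12 lower genes were chosen for XX arrays that lay above Zfy1_lo, so a Zfy2_nf level below the same XX arrays is in part fixed by that choice. Secisbp2, which is needed for selenoprotein synthesis, read 5.94, 5.85 and 5.89 in Zfy1_lo, against 7.35, 6.48 and 7.0 in XX, a difference of -1.05 (95% interval -1.47 to -0.64). Its Zfy2_nf arrays read 5.63, 6.18 and 5.57, and the direct difference between Zfy1_lo and Zfy2_nf was 0.10 (adjusted p = 0.983). Zfp982, a zinc finger gene, read 8.12, 8.22 and 8.25 in Zfy1_lo, against 8.74, 8.90 and 8.81 in XX (difference -0.62). It differed from Zfy2_nf by -0.01. Pgap4 (-0.71 from XX, -0.06 from Zfy2_nf), Clmp (-0.61 and 0.12) and Svs2 (-0.85 and 0.05) also differed little from Zfy2_nf. Both differences of each gene use the same Zfy1_lo arrays.

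The other 7 read lower than Zfy2_nf as well, and none of these differences passed. Shisal2b read 4.90, 5.82 and 5.09 in Zfy1_lo, against 6.38, 6.96 and 6.10 in XX (difference -1.21, SE 0.231), and differed from Zfy2_nf by -0.92 (adjusted p = 0.405). Gpr63, an orphan G protein-coupled receptor, differed by -0.65 from XX and -0.50 from Zfy2_nf (adjusted p = 0.45). Tmc4 differed by -0.69 and -0.48 (adjusted p = 0.496), and Selenow, a small selenoprotein, by -0.81 and -0.49 (adjusted p = 0.758). Arhgap15 (-1.29 from XX, -0.26 from Zfy2_nf), Tmsb15b1 (-0.60 and -0.26) and Apba2 (-0.92 and -0.21) complete the 12, with adjusted p of 0.903 to 0.971 against Zfy2_nf.

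**Figure D3:**
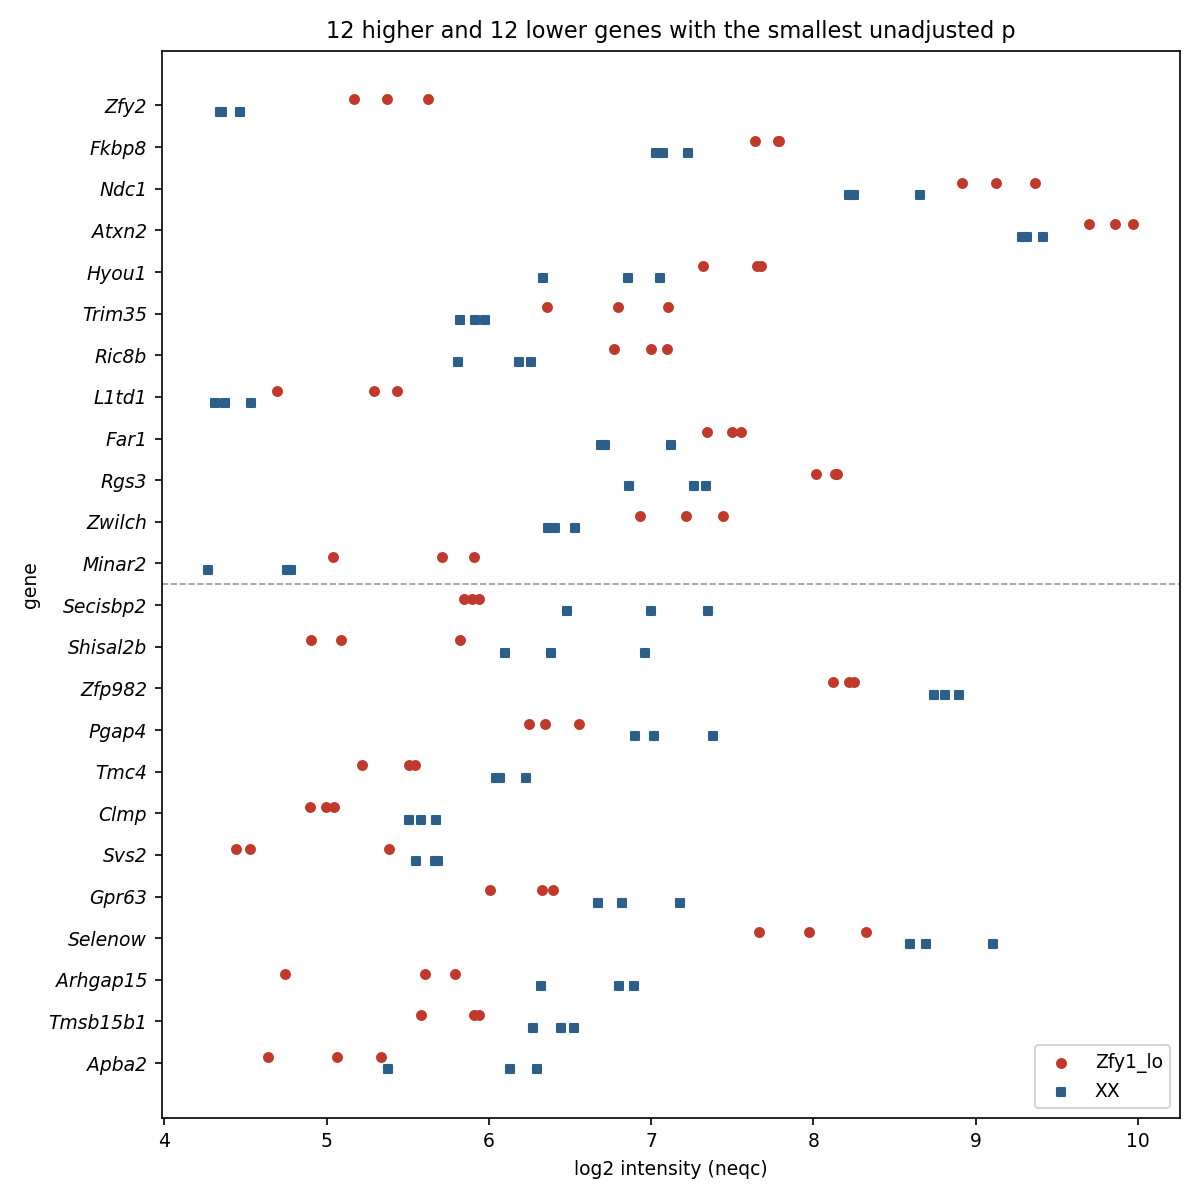
Log2 intensity of the 12 higher (above the dashed line) and 12 lower genes with the smallest unadjusted p among genes whose arrays do not overlap; red circles are Zfy1_lo arrays and blue squares XX arrays, 3 each. The separation is fixed by how the genes were chosen, and the adjusted p values are 0.24 to 0.306.

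Measured differences beyond 2-fold were found for 33 genes (0.271%), 19 above and 14 below XX, and most rested on scattered arrays. Rnase6, a secreted ribonuclease, was the most distant, at 6.81, 4.36 and 7.13 in Zfy1_lo, against 8.98, 9.46 and 9.43 in XX. The groups did not overlap, but the Zfy1_lo arrays spread over more than 2 log2 units, and the difference of -3.19 (SE 0.847) did not pass (adjusted p = 0.422). Kcnj15, a potassium channel, read 4.68, 5.61 and 7.09 in Zfy1_lo, against 7.60, 7.73 and 7.21 in XX (difference -1.72). Stim1, the calcium sensor of the endoplasmic reticulum, read 8.70, 9.69 and 10.64 in Zfy1_lo and over 11 on the first XX array, with 10.85 and 10.23 on the others, so that the groups overlapped (difference -1.02, 95% interval -2.16 to 0.13). These 3 genes were named after their values were seen.

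On the higher side single arrays set several values. Mettl7a2 and Mettl7a3, near-identical paralogs that a probe may not tell apart, differed by 1.62 and 1.52. XX replicate 3 read 4.78 and 4.88 for them, while the other XX arrays read 7.99 to 8.43 and overlapped with Zfy1_lo. Limk1, a kinase of actin dynamics, read 8.02, 8.32 and 7.87 in Zfy1_lo, against 7.48, 6.62 and 6.26 in XX (difference 1.28, 95% interval 0.34 to 2.22). Rpl37, a ribosomal protein, read 11.46, 11.49 and 10.37 in Zfy1_lo, against 10.13, 10.21 and 9.85 in XX (difference 1.04, adjusted p = 0.452), and differed from Zfy2_nf by -0.38. Few genes were detected throughout 1 group only: 44 (0.361%) on all Zfy1_lo and no XX array, and 20 (0.164%) on all XX and no Zfy1_lo array. Many of them crossed the detection floor by little, and none passed. Their bounds ran from at least 1.01-fold (Stard3) to at least 1.90-fold (Btla).

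The counts of the gene lists below are read against all genes, of which none was called and 94.1% were within 2-fold. A share near that says nothing particular about a list. Of 27 tested genes of oocyte identity none was called, the median difference was 0.05 (all genes -0.0046) and 26 were within 2-fold (96.3%). Gdf9, the growth factor by which the oocyte acts on its follicle, read 13.06, 13.25 and 13.09 in Zfy1_lo and 13.25, 13.21 and 13.09 in XX. A change beyond 1.26-fold lay outside its 95% interval. Oosp3, an oocyte secreted protein, had the smallest p of the list at 10.15, 10.11 and 10.00 in Zfy1_lo, against 9.75, 9.86 and 9.64 in XX (difference 0.34, adjusted p = 0.642). The exception within the list was Sohlh1, a transcription factor of early oocytes, whose arrays were dim and scattered (4.95, 5.88 and 4.53 in Zfy1_lo, 5.06, 6.01 and 5.86 in XX).

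Of 25 maternal effect genes, whose stored products the embryo needs, 24 were within 2-fold (96%), with a median of -0.02. Nlrp14 read 13.61, 13.47 and 13.61 in Zfy1_lo and 13.38, 13.61 and 13.61 in XX, and its interval ended at 1.21-fold. Ctcf, the architectural zinc finger protein, read 9.01, 9.13 and 8.98 in Zfy1_lo, against 9.53, 9.26 and 9.20 in XX (difference -0.29, adjusted p = 0.608), and was within 2-fold. Ago2, the slicing Argonaute, was the member not shown to be within 2-fold (difference 0.54, 95% interval -0.24 to 1.32). All 28 genes of maternal mRNA storage and decay were within 2-fold, among them Pabpc1l, a poly(A)-binding protein of oocytes, at 9.39, 9.50 and 9.17 in Zfy1_lo, against 8.96, 8.69 and 8.90 in XX (difference 0.50, adjusted p = 0.387).

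Meiotic regulators gave no call among 38 tested, with a median of -0.0042 and 37 within 2-fold. Cdc25c, a phosphatase that activates Cdk1, read 6.82, 6.32 and 6.61 in Zfy1_lo and 6.69, 7.47 and 7.43 in XX (difference -0.62, adjusted p = 0.471). Cpeb1, which controls polyadenylation of stored mRNAs, read 9.18, 9.07 and 8.56 in Zfy1_lo, against 9.56, 9.41 and 9.39 in XX (difference -0.52, adjusted p = 0.478). Plk1, a kinase of meiotic entry, read 11.34, 11.47 and 11.35, against 11.21, 11.23 and 11.20, which did not overlap but differed by 0.17 and was within 2-fold. Ptpn13 was the exception of the list.

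Of 49 spindle, kinetochore and checkpoint genes 46 were within 2-fold, with a median of -0.05. The other 3 were Aurkb, Kif11 and Nsl1. Aurkb, the kinase of the chromosomal passenger complex, read 6.17, 6.72 and 6.47 in Zfy1_lo, against 5.96, 5.53 and 5.71 in XX (difference 0.72, adjusted p = 0.434). Kif11, the kinesin that keeps spindles bipolar, read 7.94, 7.84 and 7.53, against 6.65, 7.07 and 7.30 (difference 0.76). The differences from Zfy2_nf were 0.29 for Aurkb and -0.06 for Kif11. All 22 cohesion genes were within 2-fold (median -0.03), and Stag1, a cohesin subunit, had the smallest p, at 9.66, 9.66 and 9.80 in Zfy1_lo and 9.93, 10.17 and 9.87 in XX.

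Genes of cell death and of stress were also without a call. Among 29 genes of apoptosis and p53, 4 had an unadjusted p under 0.05, all higher. Of all genes 7.6% did so in either direction and 3.8% were higher. Cycs, which encodes cytochrome c, read 6.48, 6.40 and 6.34 in Zfy1_lo, against 5.29, 5.76 and 5.63 in XX (difference 0.84, 95% interval 0.38 to 1.31, adjusted p = 0.387), and was the 1 member not within 2-fold. Bid, a death agonist of the Bcl2 family, read 7.97, 7.72 and 7.96, against 7.46, 7.17 and 7.19 (difference 0.61, adjusted p = 0.434). Against Zfy2_nf they were 0.11 and 0.33 higher. H2ax, the histone variant of the damage response, read 10.19, 10.31 and 10.47 in Zfy1_lo, against 10.01, 9.84 and 9.81 in XX (difference 0.44, adjusted p = 0.422), and 28 of 29 genes of DNA damage and repair were within 2-fold.

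The eIF2 and integrated stress response list had a median of -0.09 over 24 genes, with 23 within 2-fold. Its members with the smallest p were Eif2s3x and Eif2b4 (difference -0.25, adjusted p = 0.653), a subunit of the eIF2 exchange factor. The immediate early and stress genes had a median of 0.05 over 19 genes. Dusp1, a phosphatase induced by stress, read 10.22, 9.96 and 10.17 in Zfy1_lo, against 9.82, 9.86 and 9.56 in XX (difference 0.37, adjusted p = 0.471). Hspb1, a small heat shock protein, differed by 0.60 (adjusted p = 0.473), and Gadd45a was not within 2-fold.

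Genes of the male germ line, where Zfy proteins normally act, were largely at background. Of 36 listed spermatid and testis genes 16 were tested and 5 were detected on all 6 arrays, with a median of 0.03 and 15 within 2-fold. Hspa2, a heat shock protein of male meiosis, read 9.77, 9.44 and 9.71 in Zfy1_lo, against 9.99, 10.10 and 10.01 in XX (difference -0.39, adjusted p = 0.471). Prm1, a protamine of sperm chromatin, read 4.58, 4.67 and 4.62 in Zfy1_lo, against 4.73, 4.75 and 4.98 in XX, and was detected on 1 of the 6 arrays. All 7 tested X-linked partners of Y genes were within 2-fold, although the Zfx probe, mostly at background, sets no limit on a change. Among them Ddx3x, an RNA helicase, differed by 0.01 with an interval ending at 1.19-fold. Two-cell stage genes (11 tested) were all within 2-fold, Zfp982 included. Of these, 6 were detected on all 6 arrays and 4 on none. For an undetected gene, being within 2-fold sets no limit on a change.

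Of 43 chromatin regulators 42 were within 2-fold (97.7%), with Kdm5a the exception. Dnmt1, the maintenance DNA methyltransferase, read 13.25, 13.21 and 13.21 in Zfy1_lo, against 13.06, 13.16 and 13.16 in XX, and its interval ended at 1.30-fold. Smarca5, a chromatin remodeller, read 10.79, 10.69 and 10.69, against 10.97 on every XX array (difference -0.25, adjusted p = 0.584). Of 27 small RNA genes 23 were within 2-fold, which at 85.2% is below the 94.1% of all genes, and Ago2, Ddx4, Piwil2 and Tnrc6a were not shown to be.

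Housekeeping genes gave no call. The medians were -0.01 for 31 ribosomal proteins (29 within 2-fold), -0.04 for 50 genes of oxidative phosphorylation (49), -0.05 for 30 proteasome subunits (28) and -0.08 for 14 enzymes and regulators of cholesterol synthesis (13). Ndufb9, a complex I subunit, read 7.65, 7.52 and 7.51 in Zfy1_lo, against 7.76, 8.06 and 8.16 in XX (difference -0.43, adjusted p = 0.473). Psmb5, a catalytic proteasome subunit, read 4.53, 4.96 and 4.83, against 5.16, 5.14 and 5.66, near background (difference -0.55). Srebf2, the transcription factor that drives sterol synthesis, differed by -0.58 (adjusted p = 0.54).

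Markers of surrounding cells were listed more broadly as well. Of 15 granulosa and cumulus genes tested the median was 0.06, and 12 were within 2-fold (80%, all genes 94.1%). Gja1, the gap junction gene of granulosa cells, read 10.07, 9.19 and 7.84 in Zfy1_lo and 8.91, 8.94 and 9.08 in XX, so that the spread within Zfy1_lo was far larger than the difference of 0.05. The medians were 0.10 for 10 stroma and theca genes and -0.03 for 4 blood and immune genes, all of them within 2-fold. Of the stroma and theca genes 2 were detected on all 6 arrays and 1 on none. Of the blood and immune genes 2 were detected on all 6 arrays and 2 on none. At background, being within 2-fold sets no limit on a change.

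**Figure D4:**
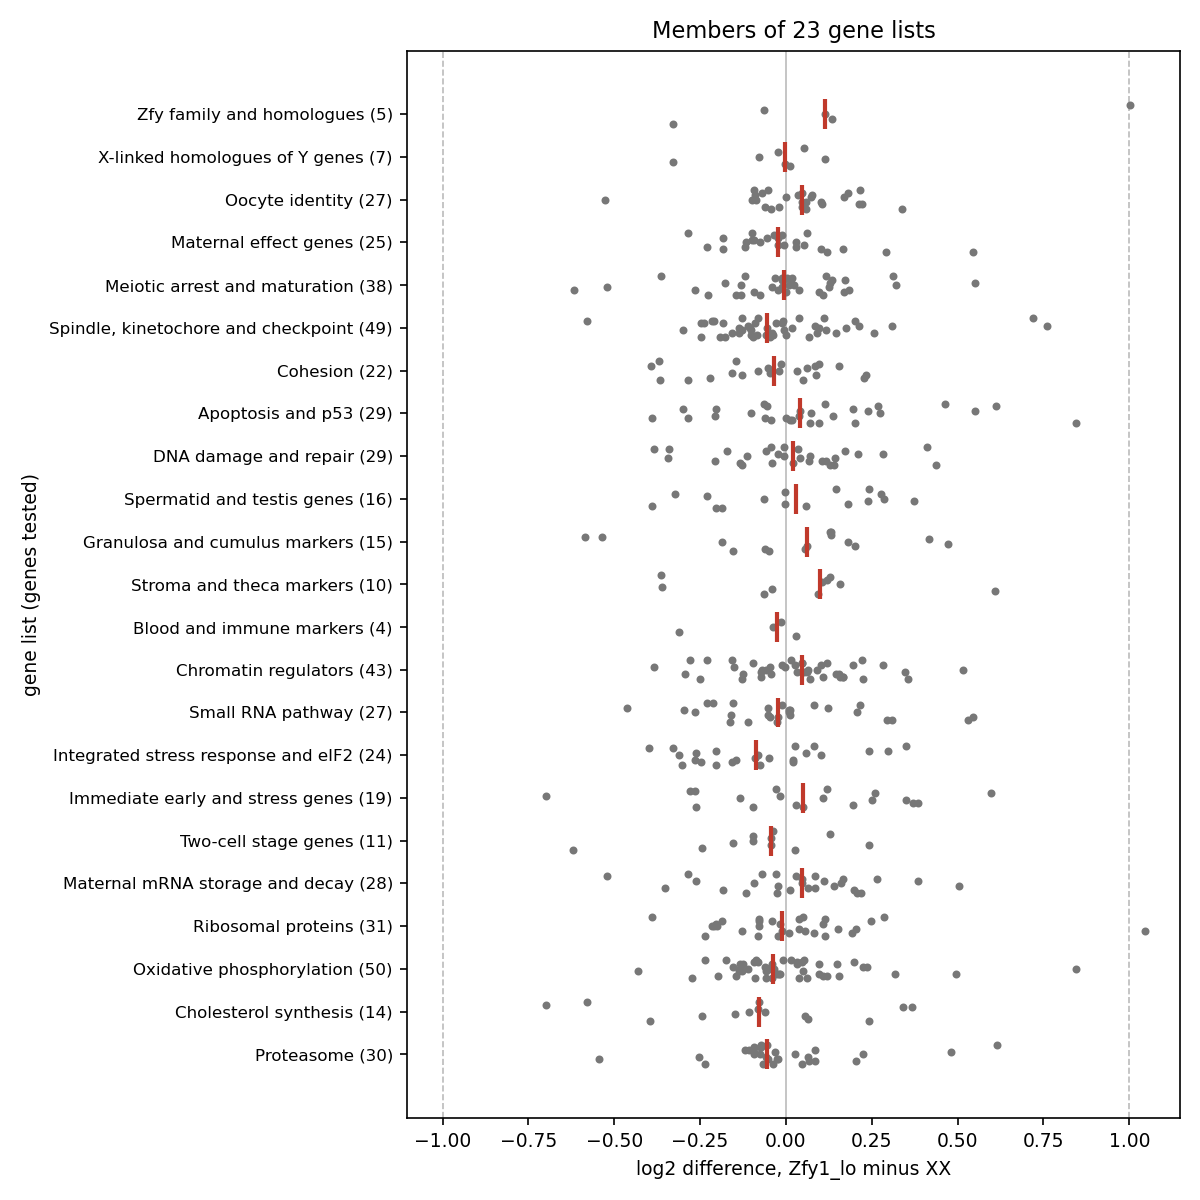
Log2 difference of Zfy1_lo minus XX for each tested member (grey points) of 23 gene lists, with the list medians (red bars) and lines at a 2-fold difference. The medians lie between -0.09 and 0.11, and the Zfy2 probe and Rpl37 are the members at or above 1.

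Set against the non-functional transgene instead of XX, 6 genes passed (0.0492%), 5 higher (0.041%) and 1 lower (0.00821%). Galntl5, a relative of the GalNAc-transferases, read 8.03, 9.29 and 8.09 in Zfy1_lo, against 6.16, 6.50 and 5.62 in Zfy2_nf, and rose by 2.37 (SE 0.306, adjusted p = 0.00993). In XX it read 9.14, 9.21 and 9.10, above the Zfy2_nf arrays too. Mb21d2 (2.24, adjusted p = 0.0141), Timd4 (1.68, adjusted p = 0.00993), 1700067K01Rik (1.55, adjusted p = 0.0141) and Mtmr10 (0.96, adjusted p = 0.0357) were the other higher genes. Gzmc, a granzyme, was the lower one (-1.88, adjusted p = 0.0357).

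In Zfy1_lo against XX the same 6 genes differed by -0.68 for Galntl5, -0.22 for Mb21d2, 0.50 for Timd4, 0.21 for 1700067K01Rik, 0.35 for Mtmr10 and -0.30 for Gzmc, and none passed. The number of calls against Zfy2_nf was 0 without Zfy2_nf replicate 1, 1 without Zfy2_nf replicate 3 and 2 without Zfy1_lo replicate 2. Galntl5, Mb21d2 and 1700067K01Rik were also among 9 genes called in Zfy2_nf against XX (0.0739%). Of those 9, Secisbp2 was the one for which Zfy1_lo lay with Zfy2_nf rather than with XX on all 3 arrays. Pls3, an actin-bundling protein, lay between them (7.06 ± 0.12 in Zfy1_lo, 7.70 ± 0.16 in XX, SD, n = 3 each). Rfesd also lay below all XX arrays (difference -0.45 from XX, 0.36 from Zfy2_nf). Other Zfy1_lo means lay between as well, such as that of Zfp536 (-1.14 from XX, 1.52 from Zfy2_nf), whose arrays overlapped with XX. Against the mean of XX and Zfy2_nf no named gene passed (0%), 715 had an unadjusted p under 0.05 (5.87%) and 11865 (97.4%) were within 2-fold.

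The genes that separated Zfy2 from Zfy1_hi were read in Zfy1_lo against XX, since those 6 arrays of batch 2 are shared with neither group. Both contrasts do use the same estimate of spread for each gene, so a call in batch 2 favours genes with a small standard error in both. That choice by itself can raise the shares at an unadjusted p under 0.05 given here, and its part was not tested. That contrast had 913 calls (7.49%), 374 higher (3.07%) and 539 lower (4.42%) in Zfy2. In Zfy1_lo against XX the 374 genes had a median difference of 0.01, with 30 higher and 16 lower at an unadjusted p under 0.05 (12.3%, all genes 7.6%), and 358 were within 2-fold. The 539 genes had a median of -0.04, with 28 higher and 26 lower (10%), and 511 were within 2-fold. Of the genes that differed by over 2-fold in batch 2, 118 higher and 189 lower, 88.1% and 87.3% were within 2-fold in Zfy1_lo against XX (all genes 94.1%), and 14.4% and 11.1% had an unadjusted p under 0.05 (all genes 7.6%). Their medians were 0.01 and -0.01.

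Single genes show the contrast in size. Hoxd8, a homeobox gene, was 3.32 higher in Zfy2 than in Zfy1_hi, and read 7.66, 8.18 and 8.22 in Zfy1_lo, against 7.66, 7.96 and 8.03 in XX (difference 0.13). Hic1, a transcriptional repressor, was 2.58 higher in Zfy2 than in Zfy1_hi and undetected on all Zfy1_lo and XX arrays. Pou2af1, a coactivator of B cells, was lower in Zfy2 than in Zfy1_hi (log2 difference -5.59) and at background in Zfy1_lo (4.47, 4.31 and 4.65) and in XX (4.40, 4.50 and 4.45). Bahcc1 (0.03), Grb7 (0.12), Otx1 (0.04), Tnnt1 (0.22), Magee1 (0.06), Tlx1 (0.18), Cd200 (0.28), Nrg1 (-0.43), Dapk2 (-0.16) and Cpn1 (0.11) also lay within 0.5 of XX. Of these, Bahcc1 was detected on no Zfy1_lo or XX array and Tlx1 on 1 Zfy1_lo array only. Magee1 was detected on 2 Zfy1_lo arrays and 1 XX array. Near background such small differences set no limit on a change.

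The remaining genes of that set were farther from XX. Plek, the actin-linked protein pleckstrin, read 6.32, 7.39 and 8.03 in Zfy1_lo, against 6.62, 6.17 and 6.24 in XX (difference 0.91, adjusted p = 0.5). Rp9 read 5.91, 6.02 and 5.86, against 5.31, 5.39 and 5.22 (difference 0.62, adjusted p = 0.484). Btla, an immune receptor, read 7.25, 4.93 and 5.19, against 4.74, 4.61 and 4.81, so that 1 array set its difference of 1.07. None of the 3 passed.

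The Zfy2_Eif2s3y pools of batch 1 were compared directly with Zfy1_lo within the batch, although only partly on the same slide. In Zfy1_lo against Zfy2_Eif2s3y 916 genes were called (7.52%), 536 higher (4.4%) and 380 lower (3.12%). Of the 374 genes higher in Zfy2 than in Zfy1_hi 169 were among these calls, and of the 539 lower genes 268. The shared estimate of spread can favour this overlap too, and its part was not tested. Hoxd8 was lower in Zfy1_lo than in Zfy2_Eif2s3y (log2 difference -2.37, adjusted p = 7.94e-05), and so was Otx1, a homeobox gene of the developing head (-2.72, adjusted p = 1.25e-05). Dapk2, a death-associated kinase, was higher in Zfy1_lo by 1.83 (adjusted p = 0.000523). The Zfy2_Eif2s3y arrays all lay on slide 2, which held 1 Zfy1_lo array, and differ by a second transgene in a share of cells, so the part of each was not tested.

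**Figure D5:**
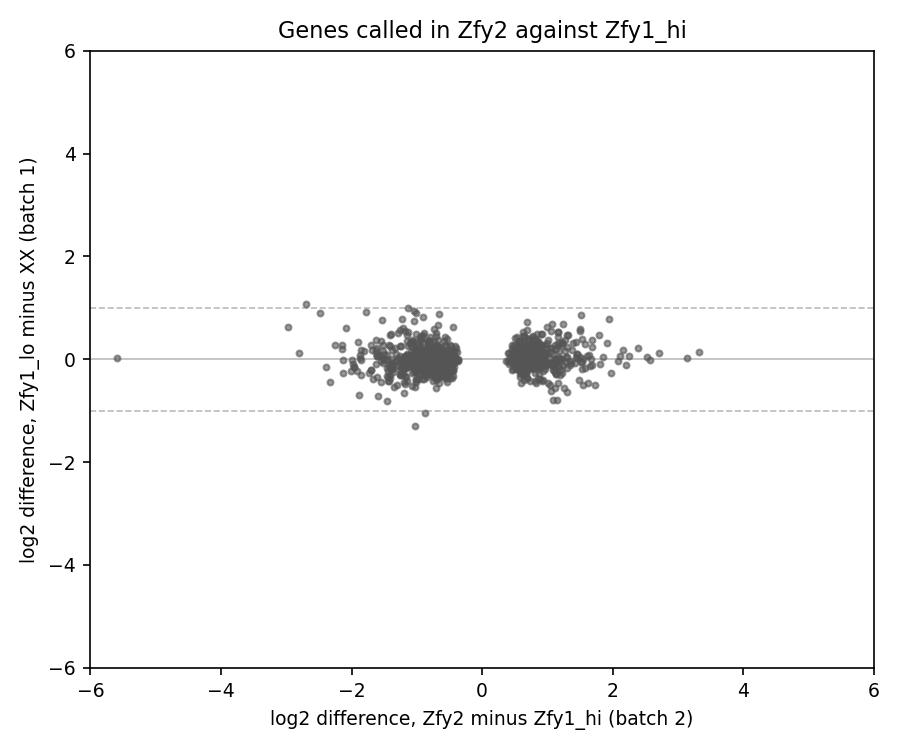
Genes called in Zfy2 against Zfy1_hi (batch 2), with that log2 difference on x and the difference of Zfy1_lo minus XX (batch 1) on y; both axes have the same scale and the dashed lines mark a 2-fold difference. Values on x reach -5.59 and 3.32, while on y most genes lie within the dashed lines.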

How the data were processed

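Total RNA was amplified and biotin labelled, per the labels' protocols. Per the file headers, the deposited table without normalization holds, for each of 18 arrays, the bead intensity of 45281 probes and a detection p-value of each. The deposited series matrix held a second intensity from the authors, whose normalization is not given in the sources used here (GenomeStudio is named per the submitters' processing notes). Of the probes, 34885 had 1 gene symbol, 18 several and 10378 none.

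Intensities were corrected and quantile normalized over 18 arrays with neqc in limma 3.58.1 (R 4.3.3), using the detection p-values and an offset of 16. Probes detected (p under 0.05) on at least 3 arrays were kept (23951), and each gene was read on its kept probe with the highest mean. One linear model with 6 group means and no covariates covered the 18 arrays, leaving 12 residual degrees of freedom. P-values were two-sided and adjusted by Benjamini-Hochberg. Equivalence used the larger of 2 one-sided p-values per gene. The steps were tested on simulated data. Array numbers limit the precision. For a feature detected on no array of 1 group, "at least" folds set the other group's mean against the higher of its own value and the lowest detected value per array.

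Slide 1 held 2 arrays and slide 2 held 1 array of Zfy1_lo and likewise of XX. The replicates are labelled biological, and same-numbered arrays did not deviate together (r = -0.14, 0.03 and -0.12), so numbers were not used as pairs.

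Named genes were 12 in each direction by smallest p without overlap and without clone names, the Zfy and Eif2s3 genes, leading members of 23 lists, the calls against and of Zfy2_nf, and 16 genes of batch 2. Other names, and list members outside 2-fold, were chosen after their values were seen. The genes and lists were chosen with earlier results of these data known.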

Additional observations from a re-analysis of the deposited data

Results flagged for a closer look

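The effects of Zfy1_lo and of Zfy2_nf, each set against the same XX arrays, differed by a direct test for 6 genes. The difference between the effects, which equals Zfy1_lo minus Zfy2_nf, was 2.37 for Galntl5 (-0.68 for Zfy1_lo and -3.05 for Zfy2_nf, adjusted p = 0.00993) and 2.24 for Mb21d2 (-0.22 and -2.47, adjusted p = 0.0141). It was 1.68 for Timd4 (0.50 and -1.18, adjusted p = 0.00993), 1.55 for 1700067K01Rik (0.21 and -1.35, adjusted p = 0.0141) and 0.96 for Mtmr10 (0.35 and -0.61, adjusted p = 0.0357). For Gzmc it was -1.88 (-0.30 and 1.58, adjusted p = 0.0357). In each of these genes the Zfy1_lo mean lay closer to XX than to Zfy2_nf. This is in part fixed by the choice of genes, which were taken for a large difference between Zfy1_lo and Zfy2_nf. With 3 arrays a group, no test for a single deviating array was made.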

How the results depend on the processing

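No named gene was called in Zfy1_lo against XX under 11 other settings, the authors' normalized values, slide as a block and slide 1 alone among them. The exception was testing every kept probe, with 1 call. Leaving out 1 array gave 0 to 3 calls: L1td1 and Shisal2b without Zfy1_lo replicate 2, and Svs2, Prex1 and Kif7 without Zfy1_lo replicate 3. The count within 2-fold was 18316 of 19057 genes without the detection filter, 22575 of 23951 over every kept probe, 7160 at a margin of 1.5-fold, and 10999 to 11076 without 1 array. It also reached 12081 with an offset of 50 and 12152 in the authors' values, both of which compress the log2 scale. Against Zfy2_nf there were 0 calls on slide 1 alone and 0 to 6 without 1 array. Against both references together there were 2 with batch 1 arrays only, 2 over every kept probe, and 0 to 3 without 1 array. The replicate block gave 0 calls against XX, 7 against Zfy2_nf, 0 against both, and 11485 genes within 2-fold. None of the values of 80 named genes with an unadjusted p under 0.05 changed sign under the settings tried, and 5 of these values passed newly. Their constant sign is largely fixed by that small p, which came from the same arrays, so it is no check of the differences. Of 1011 values of 61 other named genes, whose differences had no small p, 50 (25 genes) had the opposite sign, Gja1 among them (-0.47 to 0.65). Of these 1011 values 14 moved by more than the spread within groups. Moves of that size were not counted for the 80 genes with a small p. At the median standard error, a change of 1 gene under about 2.36-fold is not called.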
